A study of Mus musculus with 44 samples.

Results

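The IGF signaling and IGF-binding protein genes examined here were Igf1, Igf1r, Insr, Irs1, Irs2, Igfbp2, Igfbp3, Igfbp4, Igfbp5 and Pappa. These 10 members were picked by name from the 25865 genes with values in the RNA-seq table, and all 10 passed the filter on low values. The genomic window of each member was its gene body with 20 kb on either side, on mouse build mm10. Only Igfbp5 changed with GDF9 at the threshold used: its mRNA fell to 0.695 of the vehicle level, while the ligand, the receptors, the adaptors, the other binding proteins and the protease were not called.

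All cells were primary granulosa cells from PMSG-primed immature female mice, pooled over several animals per the study's methods and treated in culture for 4 h with mouse GDF9 or vehicle. GDF9 is a ligand of the TGF-beta superfamily that the oocyte secretes and that acts through SMAD2 and SMAD3 with their partner SMAD4. RNA-seq comprised 4 libraries, 2 with GDF9 and 2 with vehicle. Their labels name no genotype, and the study's methods place them in cells homozygous for a PA-tagged Smad3 allele (Smad3PA/PA, written SMAD3-PA/PA in the labels). CUT&RUN, which releases the DNA around an antibody target by nuclease cutting, gave 32 peak lists. Of these, 16 came from Smad2HA/+ cells, heterozygous for an HA-tagged Smad2 allele (SMAD2-HA/+ in the labels), with antibodies to HA, SMAD2, SMAD3 and H3K27ac. The other 16 came from Smad3PA/PA cells with antibodies to PA, SMAD2, SMAD4 and H3K27ac, an acetyl mark on histones at active regulatory DNA. Each antibody, line and treatment had 2 replicates. Both treatments of a line carried the same tagged allele, and untagged cells were not analysed here.

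IGF1 binds the receptor IGF1R, and the related insulin receptor INSR shares its downstream adaptors IRS1 and IRS2, which pass the signal to PI3K, AKT and MAPK. IGF-binding proteins hold IGF1 in the extracellular fluid and limit or extend its access to the receptor, and the metalloprotease PAPPA releases IGF1 by cutting IGFBP4 and IGFBP5. In the ovary, IGF1 increases the response of granulosa cells to FSH, and in rodents IGFBP4 and IGFBP5 are known from granulosa cells of atretic follicles.

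The sequences below are from the RefSeq genome GRCm38.p6, which has the coordinates of mm10, and are shown 5′ to 3′. RefSeq promoters were matched for 8 of the 10 members. The Igfbp5 promoter (chr1:72874816-72875115, minus strand, 250 bases before to 50 after the RefSeq start) is shown because Igfbp5 was the member whose RNA changed. Capitals mark matches to 4 motifs, searched on both strands, which do not overlap here: the SMAD box (GTCT), a GC-rich SMAD element (GGCGC), an NR5A element (AAGGTCA) and a forkhead element (GTAAACA). The promoter held 3 SMAD boxes and 1 GC-rich element.
Igfbp5 promoter: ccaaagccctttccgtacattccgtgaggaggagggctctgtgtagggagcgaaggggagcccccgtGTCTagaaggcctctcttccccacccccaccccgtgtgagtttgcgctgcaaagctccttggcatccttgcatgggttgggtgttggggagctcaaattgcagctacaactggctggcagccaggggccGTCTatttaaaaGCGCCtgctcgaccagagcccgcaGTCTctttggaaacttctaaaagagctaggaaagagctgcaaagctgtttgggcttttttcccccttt

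Of 32841 RefSeq promoters of this length, 87.991% held the SMAD box, 36.875% the GC-rich element, 4.72% the NR5A element and 3.651% the forkhead element. The other windows are 200 bases around the summit of a peak, read on the plus strand. For the Igfbp2, distal Pappa and Igf1 windows, this was an HA peak of GDF9-treated Smad2HA/+ cells. For the proximal Pappa window, it was a PA peak of GDF9-treated Smad3PA/PA cells. The peaks named below are those of the whole site and need not each reach the printed bases. The intron of Igfbp2 (chr1:72839492-72839691) is shown as a site with SMAD and H3K27ac peaks in the gene beside Igfbp5. The distal intron of Pappa (chr4:65242801-65243000) is shown as a site with peaks of all 3 SMAD antibodies in Smad2HA/+ cells and SMAD4 peaks in Smad3PA/PA cells, and the intron of Igf1 (chr10:87905162-87905361) as a site with SMAD2 peaks of both lines. The choice of these 3 windows was made with their values in view. The proximal intron of Pappa (chr4:65138418-65138617) is shown as the only PA region near any member.
Igfbp2 intron: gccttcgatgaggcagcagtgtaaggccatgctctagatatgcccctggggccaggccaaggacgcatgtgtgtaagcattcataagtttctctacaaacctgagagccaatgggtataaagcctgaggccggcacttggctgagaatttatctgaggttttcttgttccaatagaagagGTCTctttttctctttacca
Pappa distal intron: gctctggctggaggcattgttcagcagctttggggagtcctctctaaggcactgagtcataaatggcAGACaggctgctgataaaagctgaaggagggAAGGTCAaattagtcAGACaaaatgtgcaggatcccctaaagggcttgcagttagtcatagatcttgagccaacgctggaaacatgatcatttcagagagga
Igf1 intron: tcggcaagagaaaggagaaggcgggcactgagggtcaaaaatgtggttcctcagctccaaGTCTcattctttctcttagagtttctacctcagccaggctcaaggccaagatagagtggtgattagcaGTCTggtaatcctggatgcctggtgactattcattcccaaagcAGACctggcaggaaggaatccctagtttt
Pappa proximal intron: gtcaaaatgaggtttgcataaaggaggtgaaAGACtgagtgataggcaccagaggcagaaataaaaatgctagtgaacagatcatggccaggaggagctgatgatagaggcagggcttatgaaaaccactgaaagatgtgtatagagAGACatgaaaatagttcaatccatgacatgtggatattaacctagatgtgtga

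The SMAD box was matched 1 time in the Igfbp2 window, 2 times in the distal Pappa window, 3 times in the Igf1 window and 2 times in the proximal Pappa window. The NR5A element was matched 1 time, in the distal Pappa window, and the 4 windows held neither the GC-rich nor the forkhead element. Among 24627 windows of the same length around HA regions of GDF9-treated Smad2HA/+ cells, 76.306% held the SMAD box, 20.648% the GC-rich element, 7.354% the NR5A element and 2.859% the forkhead element. Among 9671 windows around PA regions of GDF9-treated Smad3PA/PA cells, these shares were 72.816%, 1.499%, 3.216% and 3.64%. The SMAD box letters are thus held by most windows of either kind.

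The RNA-seq values were normalized counts, that is, reads of a gene divided by a size factor of the library, and the 4 libraries held 8827825 to 11416005 reads in genes. The GDF9 libraries had mitochondrial shares of 3.38% and 3.07% and Malat1 shares of 0.282% and 0.264%, against 2.37% and 2.35% and 0.108% and 0.11% in the vehicle libraries. Of 13 granulosa markers, 11 passed the filter, and their summed level was 82940 to 85870 normalized counts, with 2 called higher and 1 lower. Inha was at 14810 and 14887 with GDF9 and 13383 and 14490 with vehicle, whereas Amh and Cyp19a1 were under 3 in every library. The 10 stromal markers summed to 12290 to 12900, the 7 surface epithelium markers to 2387 to 2615, the 6 theca markers to 264 to 313, the 7 leukocyte markers to 103 to 135, the 8 oocyte markers to 34.2 to 47.4 and the 6 endothelial markers to 21.2 to 40.8. No marker of these 6 lists was called, and their part in the results below was not tested.

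Across the 12597 genes tested with limma on log2(value + 1), 307 were called higher (2.44%) and 89 lower (0.707%) with GDF9, where a call needed both an adjusted p under 0.05 and a fold change past 0.18 on the log2 scale. Of the 10 members, 0 were called higher and 1 lower. Both GDF9 libraries lay above both vehicle libraries for Igf1, Irs1 and Igfbp2, against 22% of all tested genes. Both lay below for Igfbp3, Igfbp5 and Pappa, against 23.2%. For the other 4 members, the groups overlapped. The median log2 fold change was 0.04 over the members and -0.01 over all tested genes.

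Igf1, the ligand, had 6158 and 5865 normalized counts with GDF9 and 5479 and 5478 with vehicle. Both GDF9 libraries were higher, and the log2 fold change was 0.13 (95% interval 0.06 to 0.21, limma adjusted p = 0.0356), which is under the fold limit, so Igf1 was not called. At an adjusted p under 0.05 without the fold limit, 2.6% of the tested genes were higher and 1.01% lower. An antisense gene, Igf1os, overlaps Igf1, and the strand setting of the counting is not given in the sources used here. The other ligands were hardly read: Igf2 was at 2.01 and 2.90 with GDF9 and 0 and 2.66 with vehicle, Ins1 was at 0 in all 4 libraries, and Ins2 had a value above 0 in 1 library only.

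The receptors overlapped between the treatments. Igf1r, which encodes the main signaling receptor of IGF1, had 938 and 885 normalized counts with GDF9 and 910 and 845 with vehicle. Insr had 861 and 770 with GDF9 and 821 and 788 with vehicle. Neither difference exceeded the spread between replicates, with log2 fold changes of 0.06 (95% interval -0.07 to 0.18, limma adjusted p = 0.715) for Igf1r and 0.02 (-0.11 to 0.15, limma adjusted p = 0.934) for Insr. Igf2r, which clears IGF2 and does not signal through the IRS adaptors, was at 2587 and 2542 with GDF9 and 2534 and 2617 with vehicle.

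Irs1 and Irs2 encode the adaptors that the activated receptors phosphorylate. Irs1 had 235 and 194 normalized counts with GDF9 and 187 and 185 with vehicle. The GDF9 libraries lay above, but differed from each other by more than the lower of them did from vehicle, and the log2 fold change of 0.20 carried a 95% interval from -0.03 to 0.43 (limma adjusted p = 0.411). Irs2 had 320 and 283 with GDF9 and 303 and 270 with vehicle, with a log2 fold change of 0.07 (limma adjusted p = 0.780). Gm9747 overlaps Irs1 and 9530052E02Rik overlaps Irs2 on the opposite strand, and Gm16180 and the pseudogene Vmn2r-ps88 likewise overlap Insr.

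Igfbp5 encodes a binding protein that associates with the extracellular matrix. It had 819 and 777 normalized counts with GDF9 and 1138 and 1159 with vehicle. Both GDF9 libraries lay below both vehicle libraries, with means of 798 ± 29.5 and 1149 ± 14.7 (SD, n = 2 each). The log2 fold change was -0.53 (SE 0.056, 95% interval -0.64 to -0.41, limma adjusted p = 1.306e-07). It was 23rd of the tested genes in order of p for a lower or higher level, and 99 tested genes had a more negative fold change. No other gene overlaps Igfbp5. In these bulk libraries, fewer cells that express Igfbp5 and less Igfbp5 RNA per cell cannot be told apart. Beside Igfbp5, the stromal marker sum was 12900 and 12810 with GDF9 and 12290 and 12700 with vehicle, and the theca sum was 281 and 273 against 264 and 313.

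The other binding proteins were not called. Igfbp2 had 4196 and 4348 normalized counts with GDF9 and 3997 and 4150 with vehicle, and its groups did not overlap, but the replicates of each group lay farther apart than the nearest values of the treatments. Its log2 fold change was 0.07 (95% interval -0.01 to 0.15, limma adjusted p = 0.411). Igfbp4, the main substrate of PAPPA, had 1062 and 994 with GDF9 and 1024 and 1000 with vehicle. Igfbp3, the main carrier of IGF1 in serum, had 130 and 128 with GDF9 and 138 and 130 with vehicle. Their log2 fold changes were 0.02 (limma adjusted p = 0.907) and -0.06 (limma adjusted p = 0.891). Igfbp7, a binding protein of low affinity for IGFs, was at 781 and 747 with GDF9 and 758 and 789 with vehicle, and Igfbp1 was at 0 in every library.

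Pappa, the protease, had 281 normalized counts in each GDF9 library and 300 and 292 with vehicle. Both GDF9 values were lower, yet the log2 fold change of -0.07 had a 95% interval from -0.26 to 0.11 (limma adjusted p = 0.754). Htra1, a secreted serine protease that cuts several IGF-binding proteins, was far more abundant, at 21150 and 21990 with GDF9 and 21210 and 21400 with vehicle, and was not called (log2 fold change 0.02, limma adjusted p = 0.845).

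**Figure D1:**
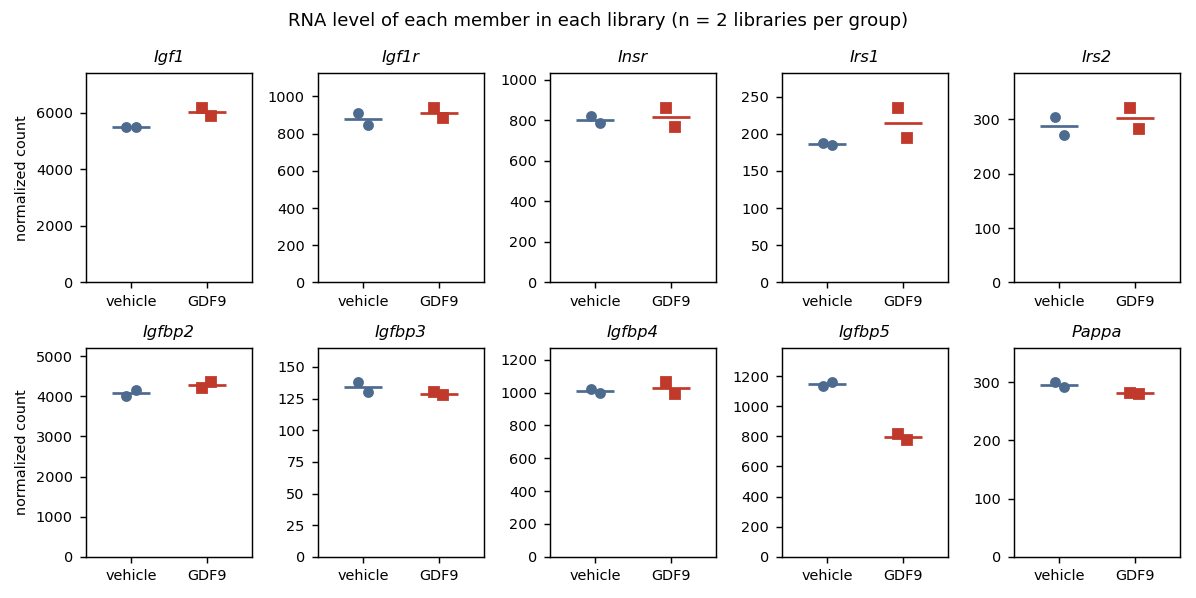
RNA level of the 10 members in normalized counts, with 1 point per library, a line at the mean of each group and each axis starting at 0. The Igfbp5 points at 819 and 777 with GDF9 stand clear of those at 1138 and 1159 with vehicle, and the other panels show groups that overlap or lie close together.

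**Figure D2:**
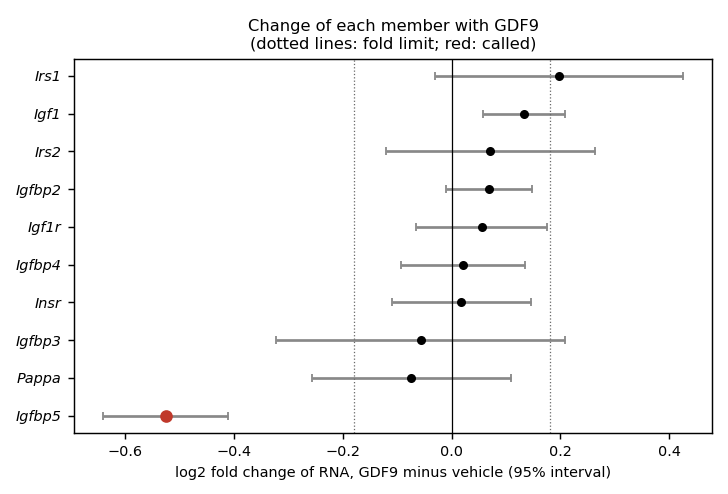
Log2 fold change of each member, GDF9 minus vehicle, with its 95% interval from limma and dotted lines at the fold limit of 0.18. The intervals of Igfbp5 and Igf1 leave out 0, and only that of Igfbp5 lies wholly beyond the fold limit.

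Divided by exon length, so that genes can be compared, the vehicle levels ran from 2205 normalized counts per kb for Igfbp2, above 99.04% of the tested genes, through 553 for Igf1, 229 for Igfbp4 and 191 for Igfbp5. Below these came Insr at 58.5, Igf1r at 52.3, Irs2 at 45.3, Igfbp3 at 42.8, Pappa at 26.8 and Irs1 at 20.4 normalized counts per kb. In the vehicle libraries only the neighbours Irs2 and Igfbp3 overlapped in this order, and with GDF9 only Pappa and Irs1 did. With GDF9, Igfbp5 was at 133 normalized counts per kb and kept its place between Igfbp4 and Insr.

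Of 91 other genes of the pathway, 76 were tested and 0 were called in either direction by limma, edgeR or DESeq2 with the fold limit. At an unadjusted p under 0.05, limma had 3 higher and 10 lower, edgeR 3 and 9, and DESeq2 0 and 1. These are 3.95% and 13.2% of the 76 by limma, beside 8.27% and 7.37% of all tested genes, and 0% and 1.32% by DESeq2, beside 3.55% and 1.84%. The median log2 fold change of the 76 was -0.02, and the range was -0.69 to 0.72. Among the receptor adaptors and brakes, 0 of 12 tested genes were called, and the most abundant, Ptpn11, a phosphatase that carries receptor signals to RAS, had 2816 and 2877 normalized counts with GDF9 and 3042 and 3021 with vehicle (log2 fold change -0.09, limma adjusted p = 0.266). None of 26 genes of PI3K, AKT and mTOR, 12 of RAS and MAPK and 4 FOXO factors was called. Inppl1, an inositol phosphatase that limits PI3K signaling, was at 3554 and 3623 with GDF9 and 3476 and 3690 with vehicle.

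Foxo1, a transcription factor that AKT keeps out of the nucleus, was at 860 and 783 with GDF9 and 865 and 757 with vehicle. Of 13 tested FOXO target genes, 0 were called, and the most abundant, Cited2, was at 5728 and 5634 with GDF9 and 6066 and 6069 with vehicle (log2 fold change -0.09, limma adjusted p = 0.157). Igf2bp2, which encodes a binding protein of Igf2 mRNA, was low, at 24.2 and 23.2 with GDF9 and 47.1 and 31.9 with vehicle (log2 fold change -0.69, limma adjusted p = 0.178).

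For CUT&RUN, a region was the union of overlapping peaks that included a peak of both replicates. In Smad2HA/+ cells treated with GDF9, 9 of the 10 members had an HA region within 20 kb, as did 90% of the tested genes matched to the annotation. With vehicle it was again 9 of 10, beside 93.8% of these genes. SMAD2 regions were also near 9 of 10 members with either treatment, beside 80.4% with GDF9 and 87% with vehicle. SMAD3 regions were near 9 of 10 members, beside 91.4% and 94.9%. Igfbp3 was the exception with each of these antibodies, with 0 regions in both treatments. These shares lie near those of all genes. H3K27ac regions were near all 10 members with either treatment (beside 91.8% and 89.2%), and in Smad3PA/PA cells near 10 with GDF9 and 9 with vehicle (beside 85.9% and 86.5%).

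SMAD and tag regions of Smad3PA/PA cells near the members were few. PA regions were near 1 of 10 members with GDF9 and 0 with vehicle, beside 7.95% and 6.85% of all genes. SMAD2 regions were near 2 and 1 members, beside 25.7% and 3.46%, and SMAD4 regions near 4 members with either treatment, beside 39.3% and 37.1%. The SMAD2 list of vehicle replicate 2 was short, with 23082 peaks over 6.447 Mb. The line's other SMAD2 lists held 78699 to 81283 peaks. A SMAD2 region with vehicle needs a peak of the short list, and its part in these shares was not tested. The peaks of the PA, SMAD2 and SMAD4 lists of this line were low. Of the peak maxima of each list, 99.99% or more were whole multiples of a step of the library, within 0.05 of a step, which gives the number of stacked fragments. This height is not scaled to depth or spike-in. The median peak was 3 to 5 fragments high in the PA, SMAD2 and SMAD4 lists of Smad3PA/PA cells against 10 to 17 in the HA, SMAD2 and SMAD3 lists of Smad2HA/+ cells. Counts of regions are therefore not compared between the lines.

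Between treatments, the 95% interval of the ratio of region counts near the members included 1 for every antibody with regions in both. In Smad2HA/+ cells there were 26 HA regions with GDF9 and 32 with vehicle (ratio 0.813, 95% interval 0.465 to 1.41), beside a ratio of 0.812 over the genome. SMAD2 regions numbered 21 and 19 (ratio 1.11, 0.566 to 2.17) and SMAD3 regions 30 and 47 (ratio 0.638, 0.390 to 1.03), beside genome ratios of 0.953 and 0.807. In Smad3PA/PA cells there were 2 and 1 SMAD2 regions (ratio 2.0, 0.104 to 118) and 6 and 5 SMAD4 regions (ratio 1.2, 0.305 to 4.97), beside genome ratios of 5.19 and 0.790. The SMAD2 counts with vehicle in this line, also over the genome, rest in part on the short list of replicate 2. H3K27ac regions numbered 13 and 14 in Smad2HA/+ cells (ratio 0.929, 0.402 to 2.13) and 36 and 32 in Smad3PA/PA cells (ratio 1.13, 0.679 to 1.87), beside 1.27 and 0.957. These intervals cover counting error only, and 2 lists against 2 cannot give an exact two-sided permutation p under 0.333. They also take the counts of the treatments as independent, although many of the regions had peaks with both.

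Igf1r, the longest member at 280.842 kb, held the most regions, with 10 and 8 HA regions and 8 and 13 SMAD3 regions with GDF9 and vehicle. Pappa followed with 5 and 8 SMAD3 regions. Igf1 had 1 HA region with GDF9 and 4 with vehicle, and Insr 2 and 7.

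Regions near the members with peaks in the lists of 1 treatment only were few in Smad2HA/+ cells and for H3K27ac. Among SMAD and PA regions of Smad3PA/PA cells, they were 40% to 100% of the 1 to 6 regions near members, where any were present. Over the genome, these shares were 40.653% to 64.547%. In Smad2HA/+ cells, HA regions with no vehicle peak were near Igf1r and Pappa (2 members, beside 11.2% of all genes), and HA regions with no GDF9 peak near Insr and Igfbp2 (beside 17.1%). SMAD2 regions with no vehicle peak were near Igfbp4 alone (beside 13.1%), and those with no GDF9 peak near Igf1r, Pappa and the shared stretch of Igfbp2 and Igfbp5 (4 members, beside 19.8%). For SMAD3, the former were near Irs1 (beside 10.3%) and the latter near Insr, Irs1, Irs2, Igfbp4 and Pappa (beside 23.5%). No H3K27ac region of this line was of either kind (beside 3.65% and 0.317%). For Smad3PA/PA cells, regions with no vehicle peak were near Pappa for PA (beside 5.93%), Igf1 for SMAD2 (beside 15%), Igf1r, Irs1 and Pappa for SMAD4 (beside 20.9%) and Igf1r, Insr and Igfbp3 for H3K27ac (beside 6.23%). Regions with no GDF9 peak were near 0 members for PA (beside 5.15%), Insr for SMAD2 (beside 1.86%), Igf1r and Irs2 for SMAD4 (beside 21.5%) and Pappa for H3K27ac (beside 10.7%). For SMAD2 of this line, the vehicle lists include the short one named above.

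**Figure D3:**
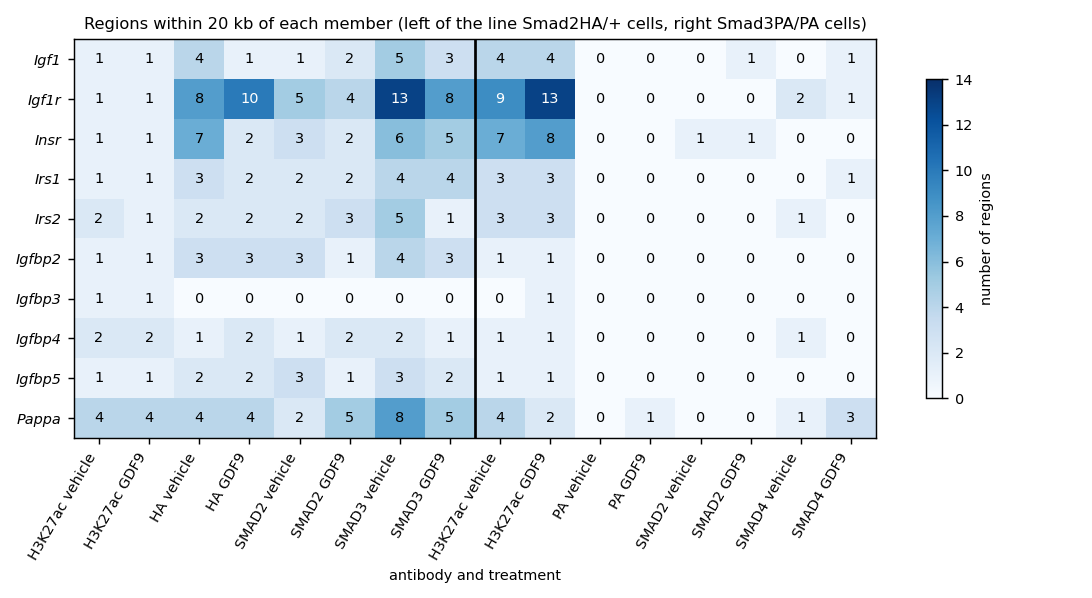
Number of CUT&RUN regions, peaks shared by both replicates, within 20 kb of each member by antibody and treatment, with Smad2HA/+ cells left of the line and Smad3PA/PA cells right. Igf1r has the most, up to 13, Igfbp3 has 0 in every SMAD and tag column, and the PA columns hold 1 region, at Pappa.

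Igfbp5 and Igfbp2 lie tail to tail on chromosome 1, Igfbp2 on the plus strand at chr1:72824503-72852474 and Igfbp5 on the minus strand at chr1:72857932-72874884, so their windows share regions. A site in an intron of Igfbp2 at chr1:72838877-72840311, 15.1 kb from the 5′ end of Igfbp2, had a peak in 12 of 12 SMAD and HA lists of Smad2HA/+ cells. Its HA peaks were 27 and 52 fragments high with GDF9 and 59 and 44 with vehicle. Its SMAD2 peaks were 12 and 17 against 22 and 23, and its SMAD3 peaks 27 and 32 against 42 and 38. Scaled to spike-in, the maxima of the treatments overlapped for each antibody: they were 0.472 and 0.579 with GDF9 against 0.692 and 0.386 with vehicle for SMAD2, and 1.06 and 1.28 against 1.70 and 1.13 for SMAD3. H3K27ac peaks covered the site in all 4 lists of each line. Among the lists of Smad3PA/PA cells, 2 of 12 had a peak there, SMAD2 at 8 fragments and SMAD4 at 5, each in GDF9 replicate 1 only.

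Within Igfbp5, a site in an intron at chr1:72869881-72871535, 4.2 kb from the 5′ end, had a peak in 10 of 12 SMAD and HA lists of Smad2HA/+ cells and in 1 of 12 of Smad3PA/PA cells. Its HA peaks were 14 and 25 fragments high with GDF9 and 22 and 19 with vehicle. Its SMAD3 peaks were 19 in 1 GDF9 list, with no peak in the other, and 18 and 26 with vehicle. It had no H3K27ac peak in any of the 8 H3K27ac lists. The 1 kb around the Igfbp5 start site, whose promoter is printed above, likewise had no H3K27ac peak in any list, and a peak in only 2 SMAD or HA lists, HA at 12 fragments and SMAD3 at 18, both in vehicle replicate 1 of Smad2HA/+ cells. This SMAD3 peak belongs to the region of the intron site, chr1:72869496-72874564, which ends short of the start site. No PA, SMAD2 or SMAD4 region of Smad3PA/PA cells lay within 20 kb of Igfbp5 or Igfbp2.

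**Figure D4:**
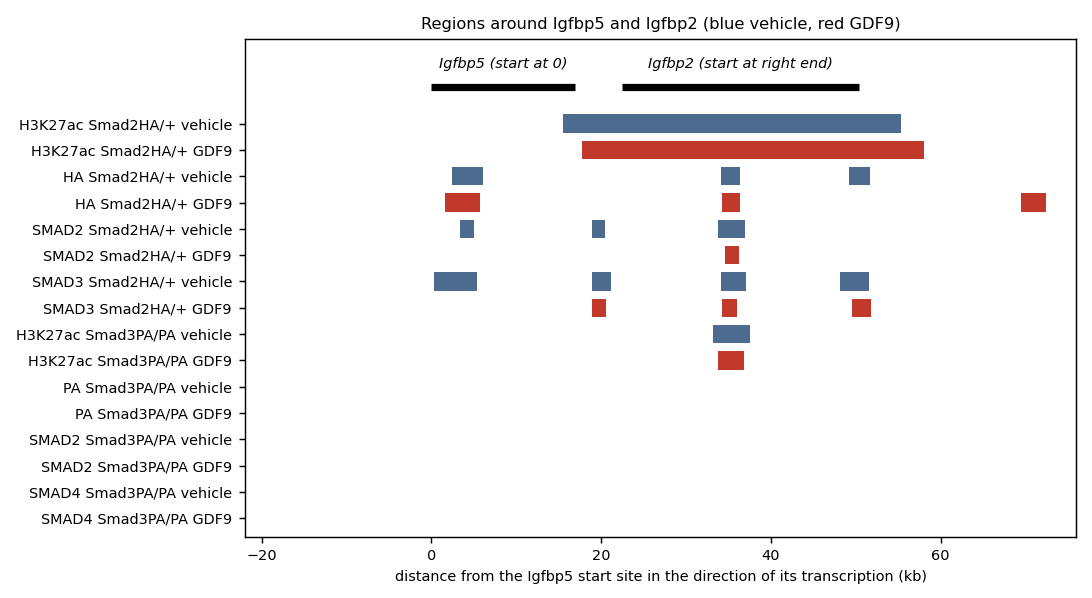
Regions around Igfbp5 and Igfbp2, by distance in kb from the Igfbp5 start site in the direction of its transcription, with 1 row per antibody, line and treatment and black bars for the genes. H3K27ac regions of both lines lie over Igfbp2, and the PA, SMAD2 and SMAD4 rows of Smad3PA/PA cells are empty. Over Igfbp5 lie HA regions of both treatments and SMAD2 and SMAD3 regions of vehicle. For SMAD2 and SMAD3, GDF9 replicate 1 also had a peak there, which alone makes no region.

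Pappa had sites at which Smad3PA/PA cells also had peaks, as did other members described below. A distal intronic site at chr4:65242493-65243167, 118.7 kb from its 5′ end, had a peak in 12 of 12 SMAD and HA lists of Smad2HA/+ cells, with HA peaks of 41 and 111 fragments with GDF9 and 65 and 84 with vehicle. Its SMAD4 peaks in Smad3PA/PA cells were 15 and 6 fragments high with GDF9, and with vehicle 1 list had a peak of 5. A further intronic site at chr4:65203678-65204453, 79.9 kb from the 5′ end, had SMAD4 peaks of 8 and 4 with GDF9 and 5 and 7 with vehicle, so that the treatments overlapped. Both sites had H3K27ac peaks in all 8 lists. The only PA region near a member was at chr4:65137534-65138756, 14 kb from the 5′ end of Pappa. It was 6 and 3 fragments high in the GDF9 lists and had no PA peak in the vehicle lists, it had no H3K27ac peak in any list, and in Smad2HA/+ cells 1 list had a peak there, SMAD2 in vehicle replicate 1. Over the genome, 64.547% of the PA regions of GDF9-treated cells had no vehicle peak.

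The ligand and receptor genes had intronic sites with peaks in 12 of 12 SMAD and HA lists of Smad2HA/+ cells. Sites with peaks in 12 of 12 lists, here and at other members, were picked as stretches shared by regions, which in part sets this count. The Igf1 site at chr10:87903932-87905355, 46.4 kb from the 5′ end, had SMAD2 peaks of 19 and 18 fragments with GDF9 and 20 and 13 with vehicle. The Smad3PA/PA lists had SMAD2 peaks of 4 fragments with GDF9 in both replicates and none with vehicle, a PA peak of 5 in vehicle replicate 2 and no SMAD4 peak. The SMAD2 list of vehicle replicate 2 in these cells is the short one, with 23082 peaks. The Igf1r site at chr7:68021362-68022700 had HA peaks of 46 and 70 fragments with GDF9 and 54 and 52 with vehicle. The Insr site at chr8:3246674-3248046 had HA peaks of 51 and 71 with GDF9 and 63 and 57 with vehicle, and at each of these 2 sites 2 of 12 lists of Smad3PA/PA cells had a peak. A further Insr site at chr8:3208835-3209657 had SMAD2 peaks of 5 fragments in both GDF9 lists and 1 vehicle list of Smad3PA/PA cells.

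The adaptors carried regions at their promoters in Smad2HA/+ cells, with HA, SMAD2 and SMAD3 regions over the Irs1 start site and SMAD2 and SMAD3 regions over that of Irs2, in both treatments. Other members did too. Igf1r had HA, SMAD2 and SMAD3 regions over its start site, and Igf1, Insr and Igfbp2 had SMAD3 regions over theirs, in both treatments. Irs1 had a SMAD4 region of Smad3PA/PA cells at chr1:82293698-82294518 with GDF9, 5 fragments high in both lists and with no vehicle peak, and Irs2 had a SMAD4 region at chr8:11011170-11012153 with vehicle in the same cells. For Igfbp4, the site with peaks in 12 of 12 SMAD and HA lists of Smad2HA/+ cells, at chr11:99024167-99024642, lies over the start site of Top2a, a topoisomerase gene, 16.8 kb upstream of Igfbp4. At the start of Igfbp4 itself there was an HA region with GDF9 at chr11:99039166-99041571 and a SMAD3 region with vehicle at chr11:99039183-99041769.

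**Figure D5:**
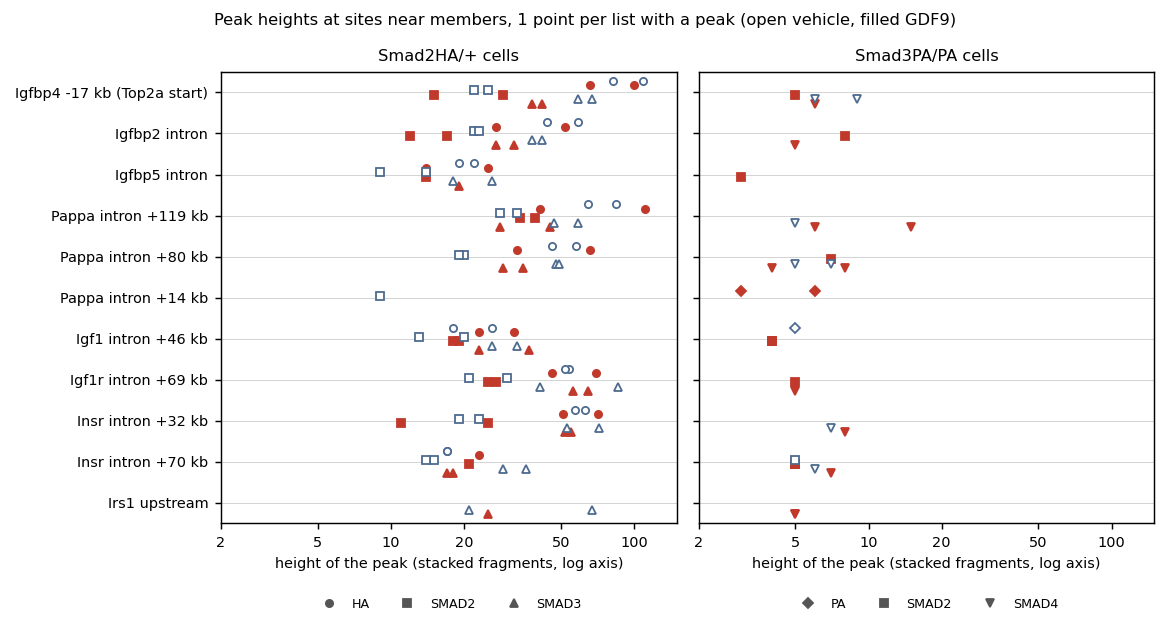
Height of each SMAD, HA or PA peak in stacked fragments, not scaled to depth, on a log axis at 11 sites near members, with 1 point per list that had a peak and H3K27ac lists left out, filled for GDF9 and open for vehicle. Smad2HA/+ peaks lie between 9 and 111 fragments with the treatments intermixed at most sites, and Smad3PA/PA peaks between 3 and 15.

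Most SMAD and HA regions of Smad2HA/+ cells near the members lay on H3K27ac regions, 85.714% to 96.875% by antibody and treatment, beside 62.39% to 74.711% of all such regions. With GDF9, H3K27ac regions of this line covered 14.247% to 91.762% of the window of a member. Each H3K27ac list of this line covered 455.7 to 471.703 Mb of a genome of 2646493.4 kb. The overlap expected from this cover was not computed. In Smad3PA/PA cells, the shares near members were 0% to 100% of 1 to 6 regions, where any were present. Of the 15 SMAD and PA regions of Smad3PA/PA cells near the members, counted by antibody and treatment, 9 (60%) lay on a HA, SMAD2 or SMAD3 region of Smad2HA/+ cells, beside 33.079% of all 45540. These pools mix antibodies in unlike proportions. For SMAD4 it was 3 of 6 with GDF9 and 4 of 5 with vehicle, beside 44.42% and 34.607%. SMAD2 had 2 of 2 and 0 of 1, beside 36.398% and 40.783%, and PA with GDF9 0 of 1, beside 18.538%. HA regions with GDF9 were also denser near members, at 2.057 per 100 kb beside 0.9309 over the genome, which is not limited to gene windows. SMAD2 and SMAD3 regions of Smad2HA/+ cells were denser too, as were SMAD4 regions of Smad3PA/PA cells (0.4747 beside 0.3471). In Smad3PA/PA cells with GDF9, PA regions (0.0791 beside 0.3655) and SMAD2 regions (0.1582 beside 0.3403) were sparser near members.

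In Smad2HA/+ cells, H3K27ac covered the start sites of 7 members with either treatment, all except Igfbp3, Igfbp4 and Igfbp5, beside 80.5% of all genes with GDF9 and 78.6% with vehicle. It covered in Smad3PA/PA cells those of 5 members with either treatment, namely Igf1, Igf1r, Insr, Irs1 and Irs2, beside 68.1% and 68.2%. These counts lie near the shares of all genes, and no difference between roles was tested.

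H3K27ac peaks of Smad2HA/+ cells were broad, and those of Smad3PA/PA cells narrow. The median H3K27ac peak was 108 to 128 stacked fragments high in Smad2HA/+ lists and 12 to 13 in Smad3PA/PA lists. The part of this height in the called width was not tested, so widths and covered start sites are not compared between the lines. In Smad2HA/+ cells, Igf1r lay under a region of 294.412 kb with GDF9, 57th in width of 10565, and of 291.036 kb with vehicle, 84th of 8308. In Smad3PA/PA cells, the region over the Igf1 start was 35.171 kb wide with GDF9, 73rd of 20417, and 33.482 kb with vehicle, 160th of 21336. H3K27ac then covered 71.278% of the Igf1 body with GDF9 and 65.484% with vehicle, against medians of 12.933% and 14.699% over all tested genes. The body of Igfbp5 was at 0% in Smad3PA/PA cells with either treatment.

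The total H3K27ac signal, scaled by the authors to spike-in, was compared over regions with a peak in all 4 lists of a line. By limma, 0 of 7721 regions were called in Smad2HA/+ cells (0%) and 0 of 16404 in Smad3PA/PA cells (0%) in either direction, with 217 higher and 563 lower and with 9 and 115 at an unadjusted p under 0.05. None of the 13 and 28 regions near members was called, with lowest limma adjusted p of 0.2746 and 0.9999. Near members, both GDF9 values lay above both vehicle values in 2 and below in 3 of 13 regions of Smad2HA/+ cells, beside 12.6% and 30.6% of all. In Smad3PA/PA cells this was 3 and 2 of 28, beside 3.38% and 9.56%. The median difference between replicates was 0.097 and 0.101 on the log2 scale with GDF9 and vehicle in Smad2HA/+ cells, and 0.645 and 0.476 in Smad3PA/PA cells. In Smad3PA/PA cells, replicate 2 was higher as a whole library. The library medians were 14.42 and 15.07 with GDF9 and 14.59 and 15.08 with vehicle. The main fit did not centre the libraries, so this offset enters its errors and adjusted p there. With each library centred on its median, the lowest limma adjusted p near members in this line was 0.8768.

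The largest difference near a member in Smad2HA/+ cells was at the Pappa start site, chr4:65119881-65137289. Its total signal was 29360 and 31150 with GDF9 and 48340 and 49640 with vehicle. Both GDF9 values were lower, with a log2 fold change of -0.70 (SE 0.131, limma adjusted p = 0.275). The peaks were also shorter, at 6.435 and 8.269 kb against 16.429 and 17.189 kb, and the maximum signal differed by -0.19 on the log2 scale. The total is a sum over the called length, and the part of that length in the difference was not tested.

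At the domain over Igfbp2 and the tail of Igfbp5, chr1:72816839-72859412, the total signal in Smad2HA/+ cells was 182300 and 149800 with GDF9 and 165600 and 188600 with vehicle, and the groups overlapped (log2 fold change -0.10, limma adjusted p = 0.823). The narrower region of Smad3PA/PA cells at chr1:72837349-72841654 had 20290 and 17510 with GDF9 and 19220 and 29870 with vehicle, and again overlapped (log2 fold change -0.35, SE 0.586, limma adjusted p = 0.9999). The domain over Igf1 had 705300 and 673700 with GDF9 and 642800 and 648600 with vehicle in Smad2HA/+ cells (log2 fold change 0.09, limma adjusted p = 0.558), with both GDF9 values higher. The 3 regions over Igf1 in Smad3PA/PA cells had log2 fold changes of -0.03, 0.16 and -0.20, each with a limma adjusted p of 0.9999. Upstream of Igfbp3, Smad3PA/PA cells had an H3K27ac region with GDF9 only, at chr11:7229109-7231406, 10 and 6 fragments high. In Smad2HA/+ cells, 3 of 4 H3K27ac lists covered it, including both vehicle lists.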

How the data were processed

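RNA-seq and CUT&RUN data of 44 samples were used as the authors deposited them, of which 4 were RNA-seq and 40 CUT&RUN, and for the 8 IgG samples no peak list was analysed here. STAR 2.7.11b was the authors' aligner for RNA-seq, after which they counted reads with featureCounts 2.1.1 and normalized the counts with DESeq2 1.48.2. The deposited RNA values are signal, that is, counts divided by a size factor of each library, and 100% of them were whole reads after division by the step of the library (tolerance 0.05). Of 27179 entries, 1314 had no values per library (0.311% of the sum of means) and were left out, as were 3 columns that have no header. The authors aligned CUT&RUN reads with Bowtie2 to mm10 and called peaks per library with SEACR, and the deposited total and maximum signal of each peak is coverage scaled to E. coli spike-in.

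Since the table holds normalized values, limma 3.58.1 (R 4.3.3) was fitted with a trend on log2(value + 1) to the 4 libraries for genes with a mean of at least 10, with Benjamini-Hochberg adjustment over all genes tested. edgeR 4.0.16 and DESeq2 1.42.0 on the recovered reads were alternatives. On simulated data for the RNA comparison (12597 genes), limma recovered 32%, 72%, 92% and 96% of changes of 1.2-, 1.5-, 2- and 3-fold, with 6 false calls. Regions required overlap of at least 1 bp between replicates and were assigned to genes of GENCODE on GRCm38 (12288 tested genes matched). Intervals of ratios of region counts are exact at 95%. The study's methods call the replicates biological and pooled over mice, but how the pools relate to the 2 samples of a group is not stated, so p-values measure the spread between these samples, which may be in part technical. Replicate numbers did not pair the RNA libraries (correlation of their deviations 0.00502, with 1 pair of deviations per gene). All members are named. Of the other pathway genes, those called would be named and otherwise the gene of highest mean in each sublist, of which 1 is not reported here. Ins1, Ins2, Igfbp1, Sos2 and the 3 granulosa markers given by name fall outside this rule and were picked with their values in view. The members, gene lists and tests were chosen with earlier results of these data known.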

Additional observations from a re-analysis of the deposited data

Results flagged for a closer look

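At Irs1, H3K27ac values that passed no threshold lay on opposite sides in the lines. In Smad3PA/PA cells, H3K27ac total signal at chr1:82272754-82277466 was 22160 and 19200 with GDF9 and 18900 and 15900 with vehicle, so that both GDF9 values were higher (log2 fold change 0.251, SE 0.581, limma adjusted p = 0.9999). In Smad2HA/+ cells, the broad region that contains it, chr1:82226939-82296200, was at 327300 and 341000 with GDF9 and 374300 and 341200 with vehicle, so that both were lower, 1 of them by a margin far under the replicate difference (log2 fold change -0.10, limma adjusted p = 0.660). It was the only pair, of 28 overlapping pairs of regions near the members, in which every GDF9 value lay above vehicle in one line and below it in the other. This order is of values not centred by library. In Smad3PA/PA cells, the library medians on the log2 scale were 14.42 and 15.07 with GDF9 and 14.59 and 15.08 with vehicle, farther apart between replicates than between treatments. Another region of Smad3PA/PA cells inside the same broad region, at chr1:82289273-82293394, had a log2 fold change of -0.14 (limma adjusted p = 0.9999). The difference between the lines was not tested.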

How the results depend on the processing

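Across 16 alternatives for the RNA fit, of which those on adjusted p alone by edgeR and DESeq2 were added after seeing the data, Igfbp5 was lower in 16, with log2 fold changes of -0.56 to -0.49 and adjusted p from 3.698e-18 to 0.0007259. Igf1 ranged from 0.10 to 0.17 (adjusted p 0.0003033 to 0.3154), and adjusted p alone by limma, or by edgeR, called 1 member higher, Igf1. The sign of Insr and Irs2 held in 14 and that of Igfbp4 in 15 of 16. Over all genes, calls fell to 161 higher and 26 lower with no filter on low values, to 113 and 20 with DESeq2 and to 121 and 24 with DESeq2 on adjusted p alone. With the replicate block, 142 genes were called lower. Leaving out each replicate gave 194 to 365 higher and 21 to 218 lower, with 218 without GDF9 replicate 2, 21 without vehicle replicate 1 and 56 without vehicle replicate 2, and 0 to 1 other pathway genes lower (Sos2, -0.26, adjusted p 0.00449, without GDF9 replicate 1). The H3K27ac deviations of same-numbered libraries correlated at 0.0267 in Smad2HA/+ and 0.00709 in Smad3PA/PA cells, which does not register an offset shared by all regions. For H3K27ac, the maximum signal called 54 regions higher and 2 lower in Smad2HA/+ cells, and the replicate block 4 lower in Smad3PA/PA cells. The causes were not tested. The ratio of HA regions near members was 0.839 and 1.27 without a replicate, and that of SMAD2 regions in Smad3PA/PA cells 1.08 and 3.30. A PA ratio could not be computed, since the vehicle count is 0. Peaks of 3 to 5 fragments limit what Smad3PA/PA lists can show.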
